A study of Mus musculus with 40 samples.

Results

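The comparison was that of liver gene expression in wild-type (Wt) mice treated with 10 μmol/kg b.wt. of the triterpenoid CDDO-Im and in Wt mice given vehicle. It used 8 of the 40 arrays of the series, chosen by their labels as 4 mice treated at this dose and 4 vehicle-treated mice, and it covered every gene that passed the expression minimum, with 1 probe set per gene. All were male C57BL/6J mice aged 12 weeks and fed AIN-76A diet. They received either agent by gavage as 3 treatments over 5 days, with vehicle a mixture of Cremophor-EL, DMSO and PBS, and liver was taken 24 h after the last treatment. Used beside them were Wt mice given 3 or 30 μmol/kg CDDO-Im and Nrf2-null (Nrf2-/-) C57BL/6J mice given vehicle or 10 μmol/kg CDDO-Im, each group of 4 mice treated on the same schedule. The Nrf2-null mice lack the gene in all tissues, so that their livers also differ from Wt before treatment. The time of day at which liver was taken is not given in the sources used here. Each array measured the RNA of whole liver, in which fewer cells of a type and less RNA per cell cannot be told apart.

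CDDO-Im is an imidazolide of a synthetic oleanane triterpenoid that reacts with cysteines of Keap1, the adaptor that marks the transcription factor Nrf2 for degradation. Nrf2 freed from Keap1 pairs with small Maf proteins and binds antioxidant response elements (ARE), and in liver it is known for raising glutathione transferases, quinone reductases and the pumps that export conjugates. Liver also holds a strong circadian clock, in which Arntl (Bmal1) with Clock or Npas2 drives genes through E-boxes, the Per and Cry proteins repress that drive, and the rising and falling of Dbp and Nfil3 time further genes through D-boxes.

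The 4 largest rises by fold were those of Dbp, an output gene of the circadian clock, Rgs16, a regulator of G protein signalling, and the metallothioneins Mt2 and Mt1. The 4 largest falls were those of Moxd1, a monooxygenase-like protein, the clock activators Npas2 and Arntl, and follistatin (Fst). Of 9695 genes tested, 1698 (17.5%) passed an adjusted p of 0.05 in limma, 491 (5.06%) higher and 1207 (12.4%) lower in treated mice. The limma fit took all 40 arrays. Its standard errors (SE) and p-values therefore rest on the spread within all 10 groups of the series, not within these 8 mice alone. The median change on the log2 scale was 0.53 among the higher and -0.49 among the lower genes, and 85 of the higher and 127 of the lower genes changed by 1 log2 unit or more. The levels of all 4 treated mice lay above those of all 4 vehicle mice for 719 genes (7.42%) and below them for 1501 (15.5%). The median change over all genes was -0.08. Centring each array on its median gave 688 genes higher (7.1%) and 881 lower (9.09%), so that the share of calls that were higher went from 28.9% to 43.8%, and a repeated quantile normalization gave 39.1%. A total of 759 genes (7.83%), 215 higher (2.22%) and 544 lower (5.61%), were called in every fit that left out 1 of the 8 mice. The whole count was 1117 without vehicle replicate 2 and 1128 without vehicle replicate 3. The higher count was 292 without vehicle replicate 3, 301 without vehicle replicate 2 and 318 without CDDO-Im replicate 4, and the lower count was 720 without CDDO-Im replicate 1.

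**Figure D1:**
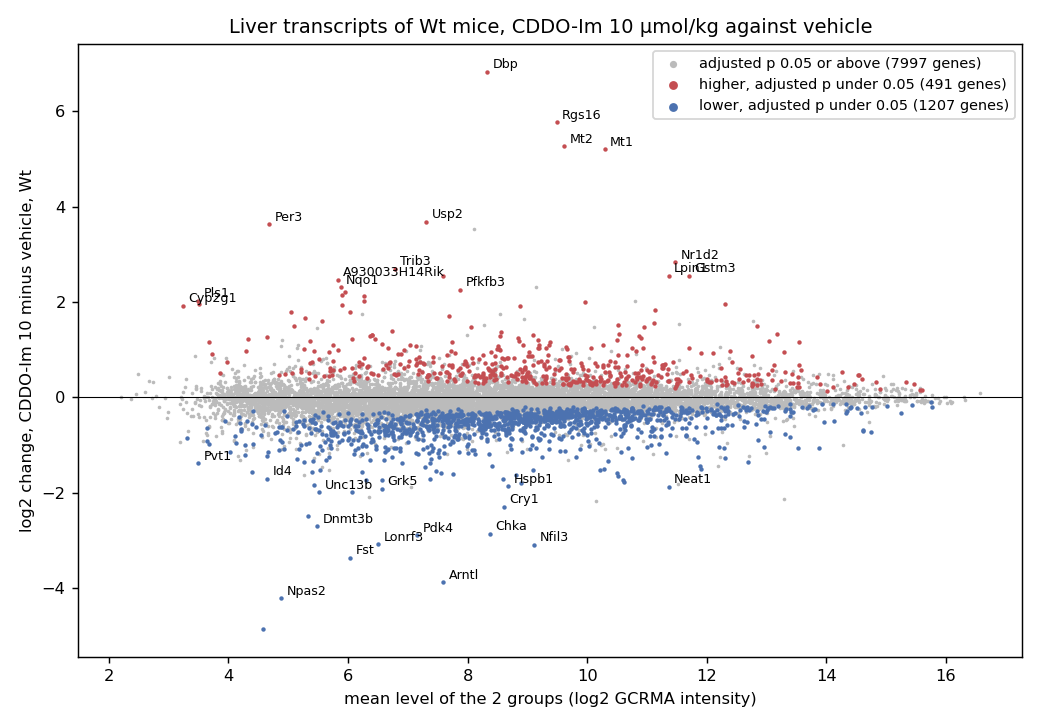
Change in log2 level between Wt mice given 10 μmol/kg CDDO-Im and vehicle-treated Wt mice (vertical axis) against the mean log2 level of the 8 mice (horizontal axis), with 1 point for each of 9695 genes and colours for the genes with an adjusted p under 0.05. Dbp stands highest, at 6.83, and the metallothioneins Mt1 and Mt2 lie above 5.

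A score of the clock in each mouse, the mean log2 level of 9 evening clock genes minus that of 6 morning clock genes, was -2.49, -2.47, -2.47 and -2.11 in vehicle-treated Wt mice and 1.88, 2.02, 1.83 and 3.30 at 10 μmol/kg. The groups did not overlap. At 3 μmol/kg the scores lay between -2.53 and -2.23 and at 30 μmol/kg between -2.37 and -2.04. Among Nrf2-null mice, the scores were 2.63, -3.01, -2.39 and -3.12 with vehicle and 1.59, -2.15, 1.86 and -2.31 with 10 μmol/kg, so that both null groups held mice of either state. In Wt mice the treatment and the state of the clock therefore cannot be told apart. The score as a covariate was an alternative chosen after the data were seen, and its slope rests on differences between mice within groups. Scores spread most within the Nrf2-null vehicle and 10 μmol/kg groups, so that the slope comes mostly from null mice. The score also separated the Wt groups compared, which widens the standard errors. A call lost in this fit therefore does not tell clock state and treatment apart. With the score 58 genes (0.598%) were called, 18 higher (0.186%) and 40 lower (0.413%), and 49 of them were called in the same direction without it.

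Of 9 evening genes measured, 6 were higher and none lower, with a median of 2.00, and of 6 morning genes 5 were lower and 1 higher, with a median of -2.70, beside -0.08 over all genes. The higher morning gene was Rora, at 0.39 (adjusted p = 0.0339). Its kept probe sets were called in opposite directions, between -0.83 and 0.60, so that its direction rests on the probe set. Dbp, a D-box activator and clock output, had log2 levels of 5.08, 5.18, 4.56 and 4.83 in vehicle-treated mice and 11.60, 11.87, 10.94 and 12.55 in treated mice. It rose by 6.83 ± 1.24 (SE; adjusted p = 0.000411), and its groups were far apart, the lowest treated mouse being at 10.94 and the highest vehicle mouse at 5.18. Arntl, the core activator, had levels of 9.68, 9.44, 9.59 and 9.42 with vehicle and 6.10, 6.15, 6.65 and 3.70 with CDDO-Im. It fell, with a change of -3.88 ± 0.64 (SE; adjusted p = 0.000161), and the fourth treated mouse was the lowest. The fourth treated mouse was also the highest for Dbp and had the highest clock score.

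Promoters of clock genes are shown because the genes rose or fell by a wide margin and hold the letters of a clock element or of an ARE core beside the start of transcription. The windows run from 250 bases before to 50 after a start in RefSeq (GRCm38.p6), and capitals mark the E-box CACGTG, the ARE core TGACNNNGC and the D-box TTANGTAA, searched on both strands. The Per1 window is chr11:69098699-69098998 on the + strand and holds ARE cores at -215 and -148 and an E-box at -166, while a second Per1 start holds none of these letters. The Per3 window is chr4:151044616-151044915 on the - strand, with D-boxes at -205 and -158. The Cry1 window is chr10:85185005-85185304 on the - strand, with an E-box at -60 and ARE cores at -8 and -1 that overlap each other and appear as 1 run of capitals.
Per1: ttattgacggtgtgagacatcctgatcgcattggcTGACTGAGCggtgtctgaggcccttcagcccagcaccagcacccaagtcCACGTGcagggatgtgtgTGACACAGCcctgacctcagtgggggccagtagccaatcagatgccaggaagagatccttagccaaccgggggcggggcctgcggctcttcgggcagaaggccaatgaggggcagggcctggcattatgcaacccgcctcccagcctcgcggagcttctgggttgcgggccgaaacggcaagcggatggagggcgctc
Per3: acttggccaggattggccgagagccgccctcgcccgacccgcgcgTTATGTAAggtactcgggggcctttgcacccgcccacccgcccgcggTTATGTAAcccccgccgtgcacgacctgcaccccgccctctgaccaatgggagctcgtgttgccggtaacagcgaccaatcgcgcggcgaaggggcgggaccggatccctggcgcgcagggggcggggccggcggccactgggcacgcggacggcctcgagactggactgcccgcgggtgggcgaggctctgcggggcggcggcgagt
Cry1: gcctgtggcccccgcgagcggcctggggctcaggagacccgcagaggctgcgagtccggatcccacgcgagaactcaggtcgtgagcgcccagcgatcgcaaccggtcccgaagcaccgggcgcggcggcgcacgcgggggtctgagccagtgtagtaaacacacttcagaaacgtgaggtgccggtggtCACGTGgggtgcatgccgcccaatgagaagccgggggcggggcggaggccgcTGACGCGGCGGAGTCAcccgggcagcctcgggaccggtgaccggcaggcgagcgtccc

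Over the promoters of all RefSeq genes, 12.4% of 32851 windows held the ARE core, 7.15% the E-box and 2.32% the D-box. Among windows of the genes tested the shares were 14.5%, 10.2% and 1.62%. The ARE core stood in 20.1% of the 561 windows of genes called higher and in 14.6% of the 1270 windows of genes called lower. For the E-box these shares were 12.7% and 8.98%, and for the D-box 1.43% and 1.81%. A match is a description of the letters, not a bound site, and a window without one says only that these letters are not in it. The windows of Nqo1, Gstm3 and Dbp held none of these motifs.

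Per3, a clock repressor of low expression here, had levels of 2.71, 2.98, 3.01 and 2.77 in vehicle mice and 6.41, 6.28, 5.78 and 7.54 in treated mice. Its change was 3.63 ± 0.83 (SE; adjusted p = 0.00306), from a vehicle mean under log2 4. The related repressor Per1 rose by 2.13 ± 0.43 (SE; adjusted p = 0.000994), from 5.06, 4.95, 5.44 and 5.37 to 6.68, 6.79, 7.95 and 7.92, with no overlap. Nr1d2 (Rev-erbβ), a nuclear receptor that represses Arntl, rose by 2.84 ± 0.45 (SE; adjusted p = 0.000123). Its vehicle mice lay between 9.52 and 10.44 and its treated mice between 12.61 and 13.12.

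Npas2, a partner of Arntl, read 6.89, 7.04, 6.75 and 7.25 with vehicle and 2.73, 2.79, 2.80 and 2.77 with CDDO-Im, where all treated mice were near the floor of the arrays. The change was -4.21 ± 0.89 (SE; adjusted p = 0.00155), with an SE from the fit over all 10 groups and not from the spread of these mice. Nfil3, a repressor at D-boxes, fell from 11.05, 10.73, 10.73 and 10.11 to 7.13, 7.87, 7.73 and 7.50, a change of -3.10 ± 0.41 (SE; adjusted p = 9.18e-06), and Cry1, a repressor of Clock and Arntl, also fell, with a change of -2.30 ± 0.46 (SE; adjusted p = 0.000873). For Cry1 the lowest vehicle mouse was at 9.13 and the highest treated mouse at 7.74. With the clock score in the fit, Nfil3 kept a call at -1.23 (adjusted p = 0.0498), but these genes make up the score and their own values under it are not independent of it.

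**Figure D2:**
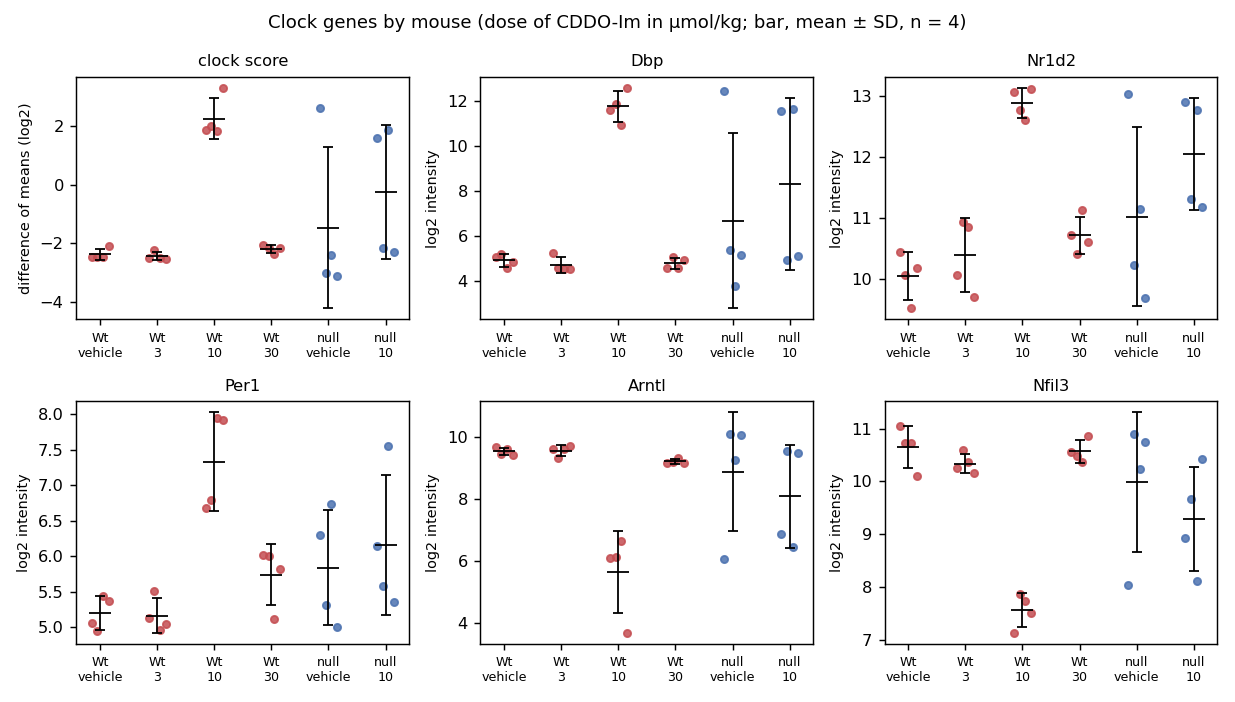
Log2 levels of clock genes in single mice (points) of Wt and Nrf2-null groups by treatment, with the mean and SD of 4 mice. Levels at 10 μmol/kg stand apart from vehicle in Wt mice, whereas each Nrf2-null group is split among its own mice.

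Of the other genes with large rises, Rgs16 had levels of 5.14, 6.98, 5.61 and 8.69 with vehicle and 11.82, 12.49, 12.17 and 13.02 with CDDO-Im. It rose by 5.77 ± 0.98 (SE; adjusted p = 0.00021), with no overlap although the vehicle mice spread widely. Usp2, a deubiquitinase, rose by 3.68 ± 0.88 (SE; adjusted p = 0.00439) and the pseudokinase Trib3 by 2.70 ± 0.54 (SE; adjusted p = 0.000925). A930033H14Rik, a transcript of unknown role, rose by 2.47 ± 0.58 (SE; adjusted p = 0.00348). Wee1, a kinase that restrains mitosis, rose by 1.71 ± 0.43 (SE; adjusted p = 0.00603), but its lowest treated and highest vehicle mouse were both at 7.41. Among the falls, Lonrf3, a RING finger protein, had levels of 7.94, 8.01, 8.07 and 8.19 with vehicle and 4.96, 4.93, 4.98 and 4.99 with CDDO-Im. Its change was -3.08 ± 0.44 (SE; adjusted p = 2.96e-05), and mice within each group were close together.

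Follistatin, which binds activins, had levels of 8.48, 8.03, 7.70 and 6.70 and, after treatment, 5.79, 5.86, 2.83 and 2.94, a change of -3.37 ± 0.72 (SE; adjusted p = 0.00172). On its other kept probe set the change was -1.10 (adjusted p = 0.183). Dnmt3b, a de novo DNA methyltransferase, fell from 7.09, 7.09, 6.32 and 6.83 to 3.41, 4.79, 4.81 and 3.50. The groups did not overlap, the change was -2.70 ± 0.33 (SE; adjusted p = 6.12e-06), and with the clock score it was -1.29 (adjusted p = 0.0398). Unc13b, a vesicle priming protein, changed by -1.99 ± 0.36 (SE; adjusted p = 0.00036) and the receptor kinase Grk5 by -1.92 ± 0.52 (SE; adjusted p = 0.0106). The long RNA Neat1 read -1.87 on its chosen probe set but 0.81 on the kept probe set of largest spread, so that its direction rests on the probe set. Moxd1, named after its values were seen, had a larger fall of -4.86 (adjusted p = 0.0015), but its vehicle mice had an SD of 3.25 and overlapped the treated mice.

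Among the low-level genes, Pls1, an actin-bundling protein, rose by 2.03 ± 0.48 (SE; adjusted p = 0.00393), and Id4, an inhibitor of basic helix-loop-helix factors, changed by -1.70 ± 0.35 (SE; adjusted p = 0.0013). The long RNA Pvt1 changed by -1.38 ± 0.22 (SE; adjusted p = 0.000139), with 1 vehicle mouse at 2.96 and the others at 4.53 or more. At 3 μmol/kg Pvt1 changed by -1.18 (adjusted p = 0.00808) and at 30 μmol/kg by 0.13 (adjusted p = 0.713). These 3 genes had a group mean under log2 4, where differences are compressed.

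Of 19 glutathione transferases measured, which join glutathione to reactive compounds, 7 were called higher, none lower and 12 not called, with a median change of 0.38, and 5 of the 7 were called without any 1 mouse. Among the 12, 1 had all treated mice below all vehicle mice. Gstm3 had levels of 10.37, 10.10, 10.72 and 10.56 in vehicle mice and 13.59, 13.09, 13.04 and 12.21 in treated mice. It rose by 2.55 ± 0.35 (SE; adjusted p = 1.52e-05), and the treated mouse nearest the vehicle mice was the fourth. Gstm4 rose by 1.28 ± 0.25 (SE; adjusted p = 0.000781), Gstm1 by 1.17 ± 0.22 (SE; adjusted p = 0.000533) and Gstm2 by 1.01 ± 0.27 (SE; adjusted p = 0.00835), with no overlap for any of them. Gsta2, an α class transferase, rose by 1.33 ± 0.35 (SE; adjusted p = 0.0081), with the fourth treated mouse at 12.80 among the vehicle mice at 11.66 to 12.97. Without vehicle replicate 2 its change was 1.05 (adjusted p = 0.0531). With the clock score in the fit, Gstm3 at 2.90 (adjusted p = 0.00317) and Gstm4 at 1.47 (adjusted p = 0.0432) remained called, and the median of the 19 was 0.47. The Gstm genes lie in 1 cluster and are alike in sequence, so that probe sets may read more than 1 of them.

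Nqo1, the quinone reductase used as a marker of Nrf2, had levels of 4.98, 4.43, 4.69 and 4.79 with vehicle and 7.63, 6.83, 6.95 and 6.71 with CDDO-Im. It rose by 2.31 ± 0.32 (SE; adjusted p = 1.58e-05), a 4.95-fold change, with no overlap, and by 2.03 (adjusted p = 0.0309) with the clock score. Of 23 quinone, carbonyl, epoxide and glucuronide enzymes, 8 were higher and none lower, with a median of 0.16. Without CDDO-Im replicate 1, 5 were higher. The sulfotransferase Sult1c2 rose by 1.67 ± 0.37 (SE; adjusted p = 0.00207), the carbonyl reductase Cbr1 by 0.98 ± 0.25 (SE; adjusted p = 0.00588) and the epoxide hydrolase Ephx1 by 0.58 ± 0.15 (SE; adjusted p = 0.00605). Ugp2, which makes UDP-glucose for glycogen and glucuronides, rose by 0.54 ± 0.12 (SE; adjusted p = 0.00313). With the clock score the median of this list was 0.24 and 1 gene (Nqo1) remained called. Of 17 genes of glutathione synthesis and thioredoxin 1 was called, the catalase gene Cat at 0.29 ± 0.07 (SE; adjusted p = 0.00756), and of 9 genes of NADPH supply none in limma, and none had an unadjusted p under 0.05 or passed the rank tests of the study's methods.

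**Figure D3:**
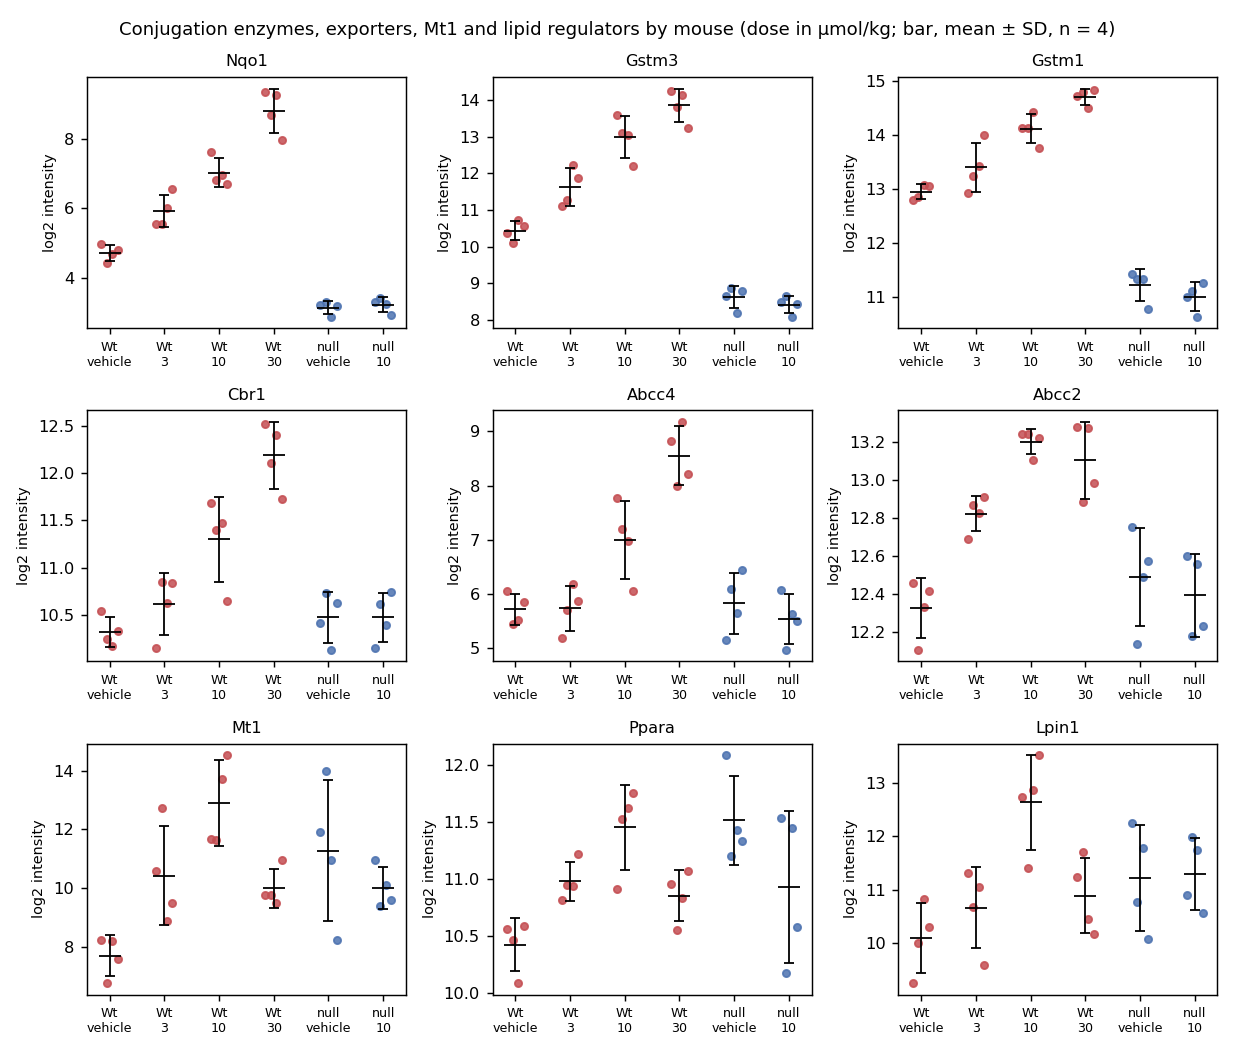
Log2 levels of conjugation enzymes, exporters, Mt1 and lipid regulators in single mice (points) of Wt and Nrf2-null groups by treatment, with the mean and SD of 4 mice. Nqo1 and Gstm3 stand above vehicle in all 4 Wt mice at 10 μmol/kg, and Nrf2-null mice given the same dose lie among their vehicle mice.

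ABC transporters, which pump conjugates, bile salts and lipids out of the cell, were called higher in 7 of 16 and lower in 1, with a median of 0.31, and without vehicle replicate 3 in 4. Abcc2, the canalicular conjugate pump, had levels of 12.46, 12.10, 12.33 and 12.41 with vehicle and 13.24, 13.24, 13.10 and 13.22 with CDDO-Im. It rose by 0.87 ± 0.11 (SE; adjusted p = 7.86e-06), with no overlap, and by 0.54 (adjusted p = 0.0488) with the clock score. Abcc4, the basolateral pump, had levels of 6.06, 5.46, 5.52 and 5.85 and 7.77, 7.21, 6.98 and 6.05. It rose by 1.28 ± 0.30 (SE; adjusted p = 0.00354), although the fourth treated mouse was level with the first vehicle mouse. Abcg5, which exports sterols, rose by 1.11 ± 0.27 (SE; adjusted p = 0.00499) and Abca6 by 0.81 ± 0.23 (SE; adjusted p = 0.0143). Abcd2, a peroxisomal transporter of fatty acyl-CoA, rose by 2.15 ± 0.60 (SE; adjusted p = 0.0117), and without vehicle replicate 3 by 1.65 (adjusted p = 0.0725).

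The Abcc4 window is shown because Abcc4 rose and its promoter holds an ARE core close to the start. It lies at chr14:118706170-118706469 on the - strand (RefSeq, GRCm38.p6), and capitals mark the E-box at -205 and the ARE core at -25, which reads on the opposite strand. A second Abcc4 start holds an ARE core at -23. The metallothionein Mt2 window is set beside it as a strongly raised gene with an ARE core, at -79, and lies at chr8:94172368-94172667 on the + strand.
Abcc4: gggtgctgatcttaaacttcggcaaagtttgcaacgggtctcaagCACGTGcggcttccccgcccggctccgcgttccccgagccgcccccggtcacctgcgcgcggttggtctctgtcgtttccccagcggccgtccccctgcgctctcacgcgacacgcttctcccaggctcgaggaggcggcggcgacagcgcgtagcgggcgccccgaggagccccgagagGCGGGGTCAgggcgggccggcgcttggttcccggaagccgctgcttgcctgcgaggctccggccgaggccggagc
Mt2: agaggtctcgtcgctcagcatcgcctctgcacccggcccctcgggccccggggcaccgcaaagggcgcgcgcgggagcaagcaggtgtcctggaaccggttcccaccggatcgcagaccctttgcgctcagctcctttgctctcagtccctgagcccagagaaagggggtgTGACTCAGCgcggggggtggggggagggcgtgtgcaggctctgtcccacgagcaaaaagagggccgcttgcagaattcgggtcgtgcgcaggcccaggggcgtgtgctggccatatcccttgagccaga

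Metallothioneins, which bind zinc and copper and respond to metals, glucocorticoids and fasting, rose strongly. Mt1 had levels of 8.24, 6.75, 8.21 and 7.56 with vehicle and 11.69, 11.65, 13.71 and 14.54 with CDDO-Im. Its change was 5.21 ± 1.14 (SE; adjusted p = 0.00206), with no overlap. Mt2 went from 7.26, 5.76, 7.79 and 7.10 to 11.52, 9.74, 13.42 and 14.30, a rise of 5.27 ± 1.35 (SE; adjusted p = 0.00732), and the third and the fourth treated mice were highest for both genes. Of the 16 genes in the glucocorticoid and metallothionein list 4 were higher and none lower, with a median of 0.07. At 3 μmol/kg Mt1 differed by 2.73 (adjusted p = 0.385) and at 30 μmol/kg by 2.30 (adjusted p = 0.143). The clock score brought Mt1 to 3.36 (adjusted p = 0.272).

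Regulators of lipid metabolism were called higher in 7 of 18 and lower in none, with a median of 0.39. Without vehicle replicate 2 or without CDDO-Im replicate 4, 4 were called. Lpin1, a phosphatidate phosphatase and coactivator of fat oxidation, had levels of 9.24, 9.99, 10.83 and 10.30 with vehicle and 12.75, 11.41, 12.88 and 13.53 with CDDO-Im. It rose by 2.55 ± 0.48 (SE; adjusted p = 0.00051), with no overlap. Ppara, the nuclear receptor of fatty acid oxidation, rose by 1.03 ± 0.22 (SE; adjusted p = 0.00159), from 10.56, 10.46, 10.08 and 10.58 to 10.91, 11.53, 11.62 and 11.75, and Lpin2 by 1.03 ± 0.18 (SE; adjusted p = 0.000363). The other kept probe sets of Ppara read 0.58 (adjusted p = 0.061) and 0.61 (adjusted p = 0.0856). Klf13, a Krüppel-like factor, rose by 0.87 ± 0.24 (SE; adjusted p = 0.01) but by 0.71 (adjusted p = 0.0541) without CDDO-Im replicate 4. Ppargc1b, a coactivator of mitochondrial genes, rose by 1.16 ± 0.37 (SE; adjusted p = 0.0257), and its adjusted p was between 0.0814 and 0.115 without any 1 of vehicle replicates 2 and 3 and CDDO-Im replicates 2 and 4. With the clock score, Lpin1 was at 1.73 (adjusted p = 0.179) and Ppara at 0.21 (adjusted p = 0.696), and none of the 18 was called in limma (median 0.15, 4 at an unadjusted p under 0.05).

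Of 37 genes of fatty acid oxidation, 4 were called higher and 2 lower, with a median of 0.00, and the higher count was 0 without vehicle replicate 3, 1 without vehicle replicate 2 and 2 without CDDO-Im replicate 2 or 3. Cpt2, the inner carnitine palmitoyltransferase, changed by -0.46 ± 0.11 (SE; adjusted p = 0.00517). Acot3, a peroxisomal thioesterase, rose by 2.21 ± 0.65 (SE; adjusted p = 0.0174), and without vehicle replicate 3 by 2.03 (adjusted p = 0.0574). Genes that build fatty acids were lower in 3 of 24 (12.5%, beside 12.4% of all genes) and higher in none, with a median of -0.09. Agpat2, an acyltransferase of phosphatidic acid synthesis, changed by -0.73 ± 0.15 (SE; adjusted p = 0.00119), and Elovl1, an elongase, by -0.59 ± 0.16 (SE; adjusted p = 0.0108), or -0.51 (adjusted p = 0.0505) without vehicle replicate 2. Slc16a1, a transporter of lactate and ketone bodies, changed by -0.62 ± 0.21 (SE; adjusted p = 0.0383), with an adjusted p between 0.0585 and 0.105 without any 1 of the 4 vehicle mice or of CDDO-Im replicates 1 and 4.

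Proteins of the lipid droplet were lower in 4 of 13 and higher in none, with a median of -0.31, and in 2 without vehicle replicate 2. Plin2, the main droplet coat of hepatocytes, had levels of 13.59, 13.76, 13.74 and 13.67 with vehicle and 12.44, 12.97, 13.28 and 13.03 with CDDO-Im. It fell, with a change of -0.77 ± 0.17 (SE; adjusted p = 0.0023), and Plin5, which tethers droplets to mitochondria, changed by -1.14 ± 0.19 (SE; adjusted p = 0.000161). Neither overlapped. Of 17 cholesterol synthesis genes none was called in limma, with a median of 0.29 and 0 at an unadjusted p under 0.05, whereas the rank tests of the study's methods passed 4. Cyp51, the lanosterol demethylase, differed by 0.65 ± 0.36 (SE; adjusted p = 0.224) and Lss, lanosterol synthase, by 0.47 ± 0.36 (SE; adjusted p = 0.395), each with all treated mice above all vehicle mice. Insig2, which holds SREBP in the endoplasmic reticulum, fell, with a change of -1.05 ± 0.26 (SE; adjusted p = 0.00555), while Npc1, a lysosomal cholesterol exporter, rose by 0.74 ± 0.23 (SE; adjusted p = 0.0204), or 0.67 (adjusted p = 0.0691) without vehicle replicate 3 and 0.65 (adjusted p = 0.0715) without CDDO-Im replicate 4. They were 2 of the 9 sterol regulators and targets, of which 1 was higher and 1 lower (median -0.01).

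Of 19 choline and phospholipid genes, 4 were higher and 2 lower, with a median of -0.04. The 4 higher calls became 2 without vehicle replicate 3 or CDDO-Im replicate 3 and none without CDDO-Im replicate 4. Chka, choline kinase α, had levels of 9.60, 9.68, 9.61 and 10.32 with vehicle and 7.08, 7.39, 7.51 and 5.78 with CDDO-Im. It fell, with a change of -2.86 ± 0.57 (SE; adjusted p = 0.000905) and no overlap. Mfsd2a, a transporter of lysophosphatidylcholine, rose by 2.55 ± 0.78 (SE; adjusted p = 0.0222), with an adjusted p between 0.0589 and 0.0949 without any 1 of vehicle replicates 1 and 2 and CDDO-Im replicates 3 and 4. Among 20 apolipoprotein and lipoprotein assembly genes limma called none (median 0.05), with 4 at an unadjusted p under 0.05 and 1 by the rank tests.

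In glucose metabolism 4 of 26 genes were higher (15.4%, beside 5.06% of all genes) and 1 lower (3.85%, beside 12.4%), with a median of 0.16. Pdk4, which shuts off pyruvate oxidation in fasting, had levels of 9.91, 7.59, 8.25 and 8.65 with vehicle and 5.34, 6.37, 5.73 and 5.38 with CDDO-Im. It fell, with a change of -2.90 ± 0.66 (SE; adjusted p = 0.00307) and no overlap. Pfkfb3, which makes the activator of phosphofructokinase, went from 5.32, 7.56, 7.57 and 6.54 to 8.47, 7.92, 9.79 and 9.83, a rise of 2.26 ± 0.49 (SE; adjusted p = 0.00186), and Foxo3, a forkhead factor, rose by 0.62 ± 0.15 (SE; adjusted p = 0.00348). Of 24 genes of the urea cycle and amino acid handling 5 were higher and none lower, with a median of 0.18, and 3 without vehicle replicate 2 or CDDO-Im replicate 4. The amino acid transporters Slc7a2, at 1.17 ± 0.25 (SE; adjusted p = 0.00187), Slc38a2, at 0.93 ± 0.18 (SE; adjusted p = 0.000597), and Slc38a4, at 0.47 ± 0.09 (SE; adjusted p = 0.000505), all rose with no overlap. The other kept probe sets of Slc38a2 and Slc38a4 read 0.40 (adjusted p = 0.222) and -0.03 (adjusted p = 0.916). With the clock score limma called none of the 26 glucose genes or of these 24, with 2 and 3 at an unadjusted p under 0.05 and medians of -0.05 and -0.02.

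Bile acid genes gave 2 higher (12.5%, beside 5.06% of all genes) and 1 lower (6.25%, beside 12.4%) of 16, with a median of -0.05. Akr1d1, the 5β-reductase of bile acid synthesis, rose by 0.68 ± 0.14 (SE; adjusted p = 0.00119) and Klb (β-Klotho), the co-receptor of fibroblast growth factors that restrain that synthesis, by 1.07 ± 0.22 (SE; adjusted p = 0.00118). Cyp2c70, which makes muricholic acids, fell, with a change of -0.69 ± 0.15 (SE; adjusted p = 0.00162). Of 32 cytochromes P450, 2 were higher (6.25%, beside 5.06% of all genes) and 2 lower (6.25%, beside 12.4%), with a median of 0.06. The higher count was 1 without any 1 of vehicle replicates 2 and 3 or CDDO-Im replicates 1, 3 and 4, and the lower count was 1 without any 1 of vehicle replicates 2 and 3 or CDDO-Im replicates 3 and 4. Cyp2g1 was at 2.27, 2.27, 2.28 and 2.28 in vehicle mice and 3.21, 4.06, 4.66 and 4.87 in treated mice, a rise of 1.93 ± 0.20 (SE; adjusted p = 1.68e-07) from the floor of the arrays, and of 1.83 (adjusted p = 0.000616) with the clock score. Arnt, the partner of the aryl hydrocarbon receptor, fell, with a change of -0.49 ± 0.13 (SE; adjusted p = 0.01), and was the 1 lower gene of 12 P450 regulators, of which the other call, Nr1i2 (PXR), was 0.56 ± 0.15 (SE; adjusted p = 0.0107). Without vehicle replicate 2 the Nr1i2 change was 0.43 (adjusted p = 0.0715) and without CDDO-Im replicate 4 it was 0.46 (adjusted p = 0.0573). Of 11 organic ion uptake transporters 1 was lower and none higher, with a median of -0.32. The lower count was 0 with centred arrays and without any 1 of vehicle replicates 1, 2 and 3 or CDDO-Im replicates 1 and 4, and 2 without CDDO-Im replicate 2.

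Cytosolic heat shock proteins, the chaperones raised by unfolded protein in the cytosol, were lower in 12 of 26 and higher in none, with a median of -0.52. The mean log2 level over the list was 10.29, 10.84, 11.38 and 10.81 in vehicle-treated mice and 10.06, 10.07, 10.19 and 10.21 in treated mice. Vehicle replicate 3 was thus the highest mouse and vehicle replicate 1 close to the treated mice. Without vehicle replicate 3 the count was 3, and without CDDO-Im replicate 2 it was 7. Hspb1, a small heat shock protein, had levels of 9.27, 9.37, 10.66 and 9.13 with vehicle and 7.59, 7.67, 8.13 and 7.58 with CDDO-Im. It fell, with a change of -1.86 ± 0.39 (SE; adjusted p = 0.00148) and no overlap. Chordc1, a partner of HSP90, fell, with a change of -0.998 ± 0.25 (SE; adjusted p = 0.0063), although its groups met at 10.69. With the clock score the median of the list was -0.41, beside -0.52 without it, while limma called none of the 26, and 5 had an unadjusted p under 0.05.

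Chaperones of the endoplasmic reticulum were lower in 8 of 30 and higher in none, with a median of -0.27. The count was 1 without vehicle replicate 3, 3 without vehicle replicate 2, 2 without CDDO-Im replicate 1 and 4 without CDDO-Im replicate 4. Edem1, which sends misfolded glycoproteins to degradation, had levels of 11.62, 11.93, 12.17 and 11.87 with vehicle and 11.35, 11.24, 11.37 and 11.11 with CDDO-Im. Its fall was a change of -0.63 ± 0.15 (SE; adjusted p = 0.00333), and its groups did not overlap. On its other kept probe set the change was -0.14 (adjusted p = 0.432). Creld2, a target of the unfolded protein response, changed by -1.53 ± 0.53 (SE; adjusted p = 0.0452), with an adjusted p between 0.0595 and 0.202 without any 1 of vehicle replicates 2, 3 and 4 or CDDO-Im replicates 1, 2 and 4. In the integrated stress response, 2 of 26 genes were higher (7.69%, beside 5.06% of all genes) and 3 lower (11.5%, beside 12.4%), with a median of 0.02. The lower count was 0 without vehicle replicate 3 and 1 without vehicle replicates 2 or 4 or CDDO-Im replicates 1 or 4.

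In the respiratory chain 22 of 72 genes were lower and 1 higher, with a median of -0.12 beside -0.08 over all genes. After centring of the arrays 4 were lower and 2 higher. Without CDDO-Im replicate 4 the lower count was 10 and without vehicle replicate 1 it was 14. Uqcrb, a complex III subunit, had levels of 15.54, 15.39, 15.37 and 15.37 with vehicle and 15.10, 15.11, 15.21 and 14.98 with CDDO-Im. Its change was -0.32 ± 0.05 (SE; adjusted p = 0.000159), but its other kept probe set read -0.03 (adjusted p = 0.836). The complex I subunits Ndufs7, Ndufa9 and Ndufv3 changed by -0.38 ± 0.10 (SE; adjusted p = 0.00876), -0.26 ± 0.05 (SE; adjusted p = 0.00121) and -0.26 ± 0.07 (SE; adjusted p = 0.00655). None of the 4 overlapped between the groups. Cytosolic ribosomal proteins were lower in 4 of 40 (10%, beside 12.4% of all genes) and higher in 1 (median -0.05), with 2 lower without vehicle replicate 1. Rpl38 changed by -0.21 ± 0.04 (SE; adjusted p = 0.00137) and Rpl14 by -0.72 ± 0.18 (SE; adjusted p = 0.00631).

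Proteins that splice or bind RNA were lower in 13 of 65 and higher in 6 (median -0.03), and 8 in each direction after centring. The lower count was 7 without vehicle replicate 2 and 8 without CDDO-Im replicate 1 or 4, and the higher count 3 without vehicle replicate 2 or 3. Tardbp (TDP-43), which keeps cryptic exons out of mRNA, had levels of 10.34, 10.68, 10.49 and 10.37 with vehicle and 9.47, 9.33, 9.64 and 9.79 with CDDO-Im. Its fall was a change of -0.91 ± 0.20 (SE; adjusted p = 0.00215). Its other kept probe sets read -0.59 (called) and -0.28, -0.14 and -0.04 (not called). The splicing factor Srsf3 changed by -0.82 ± 0.16 (SE; adjusted p = 0.000626) and Hnrnpc by -0.63 ± 0.12 (SE; adjusted p = 0.000714). Ddx5, an RNA helicase, rose by 0.48 ± 0.11 (SE; adjusted p = 0.0027), but its probe set of largest spread read -0.20. For 33 genes the kept probe sets were called in opposite directions, and the gap was largest for Rbbp6, a ubiquitin ligase, at 0.86 and -1.21.

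Genes of iron and heme had a median of 0.06. They were higher in 4 of 24 (16.7%) and lower in 2 (8.33%), beside 5.06% and 12.4% of all genes. The higher count was 2 without vehicle replicate 3 or 4 or CDDO-Im replicate 2. Slc11a2 (DMT1), the ferrous iron importer, changed by -0.85 ± 0.18 (SE; adjusted p = 0.00122), and Uros, a heme synthesis enzyme, by -0.54 ± 0.13 (SE; adjusted p = 0.00455). The other kept probe sets of Slc11a2 read -0.17 and -0.26 and were not called. Ireb2, which binds iron-responsive elements, rose by 0.44 ± 0.11 (SE; adjusted p = 0.0056). In the growth hormone and IGF list 2 of 13 were lower (median -0.18), Stat5a at -1.07 ± 0.22 (SE; adjusted p = 0.00114) and Stat5b at -0.47 ± 0.16 (SE; adjusted p = 0.0388), the second with an adjusted p between 0.0604 and 0.142 without any 1 of vehicle replicates 1, 2 and 4 or CDDO-Im replicates 1, 2 and 4. Male-biased genes were lower in 3 of 11 (median -0.57), in 1 without vehicle replicate 3 and none without vehicle replicate 2, and female-biased genes were higher in 2 of 5 (median 0.19) and in none without vehicle replicate 3.

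In the cell cycle and replication list 4 of 26 were higher and 2 lower (median 0.00). The cyclin-dependent kinase inhibitor Cdkn1b rose by 0.41 ± 0.09 (SE; adjusted p = 0.0034), and Ccng2, an unusual cyclin of quiescent cells, fell, with a change of -1.08 ± 0.25 (SE; adjusted p = 0.00348). Tob2, an antiproliferative protein, rose by 1.83 ± 0.29 (SE; adjusted p = 9.17e-05), and Zfp36l1, which destabilises AU-rich mRNA, changed by -0.89 ± 0.17 (SE; adjusted p = 0.000582). They were 2 of the 18 immediate early genes measured, of which 1 was higher and 1 lower (median -0.21). In the DNA methylation and one-carbon list 1 of 17 was higher (5.88%, beside 5.06% of all genes) and 2 were lower (11.8%, beside 12.4%), with a median of -0.10. In addition to Dnmt3b, Tet2, a methylcytosine dioxygenase, was lower at -0.56 ± 0.16 (SE; adjusted p = 0.0162), and at -0.40 (adjusted p = 0.105) without vehicle replicate 2.

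Of 18 autophagy genes, 3 were higher and 4 lower (median 0.02), and 2 were lower without CDDO-Im replicate 1. Ulk1, the kinase that starts autophagy, rose by 0.78 ± 0.21 (SE; adjusted p = 0.0102), whereas Atg12, a ubiquitin-like conjugate, changed by -0.33 ± 0.06 (SE; adjusted p = 0.000618) on a probe set whose partner read 0.10. Of 21 genes of the V-type proton pump and lysosome, 1 was higher and 2 lower (median -0.04). Atp6v1a, a catalytic subunit, had levels of 10.10, 10.15, 10.34 and 10.05 with vehicle and 10.68, 10.52, 10.69 and 10.57 with CDDO-Im. It rose by 0.45 ± 0.07 (SE; adjusted p = 0.000159), but its other kept probe set read -0.17 (adjusted p = 0.179). The membrane subunit Atp6v0e changed by -0.36 ± 0.08 (SE; adjusted p = 0.00207). Proteasome subunits had a median of -0.01 and were higher in 3 of 38 (7.89%) and lower in 2 (5.26%), beside 5.06% and 12.4% of all genes. The higher count was 1 without vehicle replicate 2 or 3 or CDDO-Im replicate 4. The lower count was 0 with centred arrays and without any 1 of vehicle replicate 3 and CDDO-Im replicates 2 and 4, and 1 without vehicle replicate 1 or 2. Psma7 rose by 0.56 ± 0.11 (SE; adjusted p = 0.00111), and its other kept probe set read 0.21 (adjusted p = 0.209).

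Acute phase genes were higher in 1 of 25 (4%, beside 5.06% of all genes) and lower in none, with a median of 0.11. The higher gene was the receptor Il6ra at 1.37 ± 0.40 (SE; adjusted p = 0.0176), with an adjusted p between 0.0514 and 0.0734 without any 1 of vehicle replicates 2 and 3 or CDDO-Im replicates 3 and 4. Complement and coagulation genes were lower in 5 of 31 (16.1%, beside 12.4% of all genes) and higher in none (median -0.05). The count was 2 with centred arrays, 0 without vehicle replicate 2, 1 without vehicle replicate 3 or CDDO-Im replicate 2, 2 without CDDO-Im replicate 1, and 3 without vehicle replicate 1 or CDDO-Im replicate 3. C8b, of the membrane attack complex, changed by -0.57 ± 0.17 (SE; adjusted p = 0.019), or -0.48 (adjusted p = 0.083) without vehicle replicate 2. In the interferon and antigen presentation list 1 of 28 was lower (median -0.30), the antiviral Rsad2 at -0.91 ± 0.25 (SE; adjusted p = 0.0108), or -0.73 (adjusted p = 0.0543) without vehicle replicate 1 and -0.75 (adjusted p = 0.0568) without CDDO-Im replicate 4. Of 12 Nrf2 pathway proteins 1 was higher (median 0.07), the small Maf protein Maff at 0.98 ± 0.33 (SE; adjusted p = 0.037), with an adjusted p between 0.0926 and 0.147 without any 1 of vehicle replicates 2 and 4 or CDDO-Im replicates 1 and 4.

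Several small counts above lay near the shares over all genes, 5.06% higher and 12.4% lower, and several rested on single mice. Among those near the shares were the counts of the integrated stress response, the DNA methylation list and the proton pump list. The 1 higher call was lost among morning clock genes without any 1 of vehicle replicates 1, 2 and 3 or CDDO-Im replicates 1, 3 and 4, and in the respiratory chain without any 1 mouse other than vehicle replicate 4. It was lost among ribosomal proteins without any 1 of vehicle replicates 1, 2 and 3 or CDDO-Im replicates 2 and 4, and in the DNA methylation list without any 1 of vehicle replicates 2, 3 and 4 or CDDO-Im replicates 3 and 4. The 2 lower calls became 1 in the proton pump list without any 1 of the 8 mice, and in fatty acid oxidation without any 1 of vehicle replicates 1, 2 and 3 or CDDO-Im replicates 2 and 4. They became 1 in the cell cycle list without any 1 of vehicle replicates 1, 2 and 3 or CDDO-Im replicates 1 and 4, and among choline genes without any 1 of vehicle replicates 1, 2 and 3 or CDDO-Im replicates 1, 2 and 4. In the integrated stress response the 2 higher calls became 1 without any 1 of vehicle replicates 2, 3 and 4 or CDDO-Im replicate 2.

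**Figure D4:**
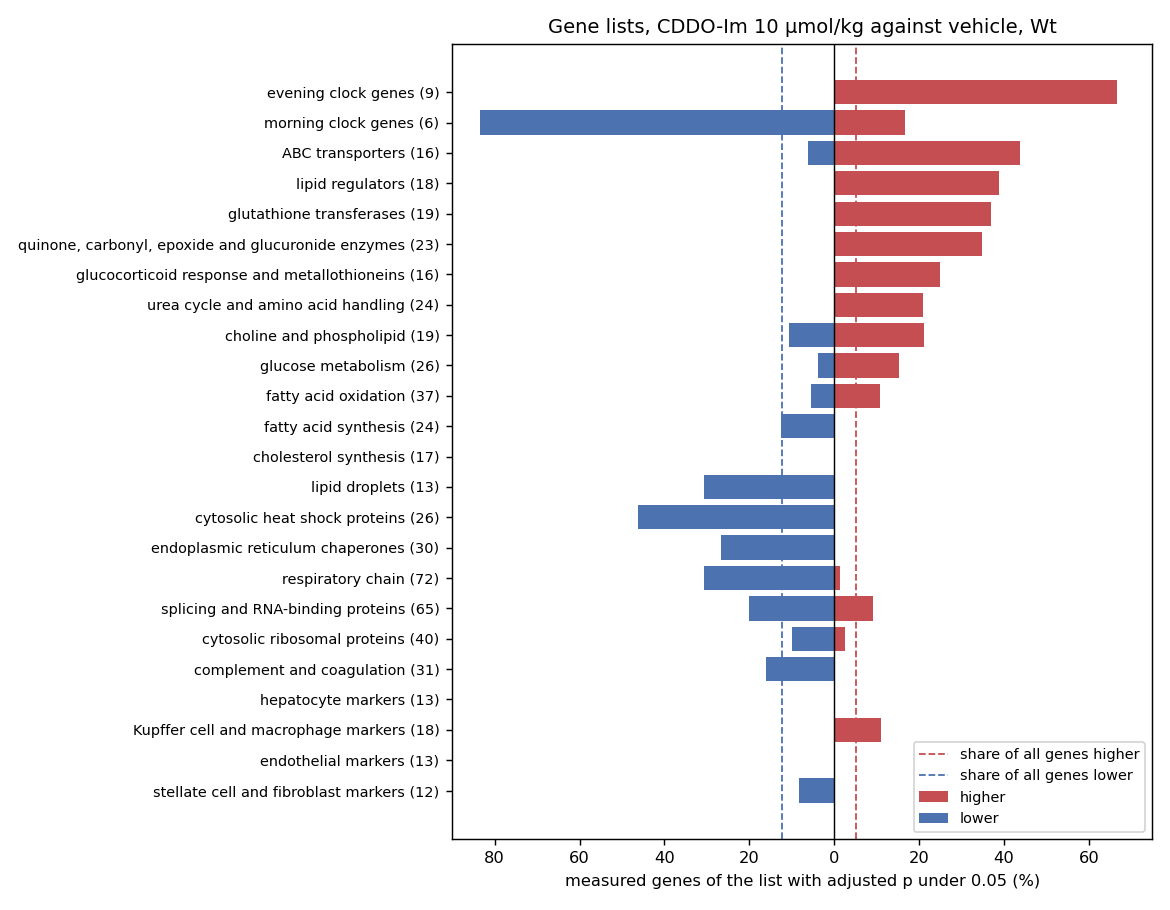
Number of measured genes called higher and lower at 10 μmol/kg in Wt mice for gene lists named in the text, as a percent of the genes measured in each list (number in parentheses), with dashed lines at the shares over all 9695 genes. Clock genes have the longest bars, 6 of 9 evening genes higher and 5 of 6 morning genes lower.

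Markers of other cells were checked over whole lists. The summed level of 13 hepatocyte markers was between 18.17 and 18.20 on the log2 scale in vehicle mice and between 18.11 and 18.18 in treated mice, and limma called none (median -0.06; 2 at an unadjusted p under 0.05 and 0 by the rank tests). For 18 Kupffer cell and macrophage markers the sums were between 14.56 and 15.09 and between 14.49 and 15.04. The scavenger receptor Marco was higher at 1.96 ± 0.54 (SE; adjusted p = 0.0117), or 1.58 (adjusted p = 0.0651) without CDDO-Im replicate 1, and the ferroportin gene Slc40a1 at 0.37 ± 0.12 (SE; adjusted p = 0.0292), with an adjusted p between 0.0544 and 0.111 without vehicle replicate 3 or CDDO-Im replicates 1 or 4, while the median of the list was -0.34. For 13 endothelial markers the sums were between 13.18 and 13.42 in vehicle mice and between 12.95 and 12.99 in treated mice, and for 12 stellate cell and fibroblast markers between 14.25 and 14.36 and between 14.04 and 14.16. These sums did not overlap, with medians of -0.22 and -0.36, no endothelial marker called in limma (2 at an unadjusted p under 0.05, 0 by the rank tests) and 1 stellate marker lower, the G protein regulator Rgs5. It changed by -0.57 ± 0.18 (SE; adjusted p = 0.0254), with an adjusted p between 0.0556 and 0.11 without any 1 of vehicle replicates 1 and 3 or CDDO-Im replicates 1 and 2, and its probe set of largest spread read 0.28. The part of these cells in the results was not tested.

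The other marker lists had few members at measurable level. Of 2 bile duct markers 1 was lower, Sox9 at -0.78 ± 0.26 (SE; adjusted p = 0.0326), with an adjusted p between 0.0523 and 0.141 without any 1 of vehicle replicates 1 and 4 or CDDO-Im replicates 2 and 3. None of 6 lymphocyte and neutrophil markers (median -0.20), 3 exocrine pancreas markers (median 0.09) or 3 red blood cell markers (median -0.47) was called in limma. At an unadjusted p under 0.05 there were 0, 0 and 1, and by the rank tests 0, 1 and 0. The summed level of the pancreas markers was between 9.80 and 10.13 with vehicle and between 8.84 and 9.64 with CDDO-Im. Pericentral genes were higher in 1 of 14 (median 0.11), in none without vehicle replicate 2 or 4 or CDDO-Im replicate 4, and periportal genes higher in 1 and lower in 1 of 13 (median -0.04), the latter Cdh1 (E-cadherin) at -0.83 ± 0.21 (SE; adjusted p = 0.00583). The list named fetal liver genes also held follistatin and an activin subunit, and these were its 2 lower calls of 9 (median -0.18). Follistatin is given above, and the activin subunit Inhbc was at -0.81 ± 0.20 (SE; adjusted p = 0.00554). The other 7 genes of the list were not called. Of 9 thyroid hormone genes limma called none (median 0.01), with 3 at an unadjusted p under 0.05 and 1 by the rank tests.

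The Nrf2-null mice were checked by Nfe2l2, the gene of Nrf2. The probe set 1416543_at read 10.77 to 11.75 in all Wt mice and 2.72 to 3.10 in all null mice, with a difference of 8.48 between the vehicle groups (exact permutation test, two-sided p = 0.0286, the smallest that 4 against 4 allows). A second probe set, 1457117_at, read 4.49 to 7.10 in Wt and 5.96 to 7.47 in null mice and did not separate the genotypes. In Wt mice 10 μmol/kg left Nfe2l2 at a difference of 0.17 ± 0.16 (SE; adjusted p = 0.504).

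At 10 μmol/kg in Nrf2-null mice there were 7 calls (0.0722%), 2 higher (0.0206%) and 5 lower (0.0516%), namely Hint2 and Naxd higher and Atp2b1, Atp6v1a, Nipbl, Pcmtd1 and Thoc2l lower. Atp6v1a changed by -0.46 (adjusted p = 0.00201) in null mice, opposite to its rise in Wt mice. Its other kept probe set read 0.08 (adjusted p = 0.754) in null and -0.17 (adjusted p = 0.179) in Wt mice. Both directions thus rest on the probe set. The null vehicle group held 1 mouse, replicate 1, of the treated clock state, and without it 628 genes (6.48%) were called, 348 higher (3.59%) and 280 lower (2.89%). The null vehicle mice left in that fit all had low clock scores while the treated null mice were mixed. The fit without replicate 1 therefore also contrasts clock states. Without null vehicle replicate 3 the count was 51, without null CDDO-Im replicate 1 it was 12, and without null vehicle replicate 2 or null CDDO-Im replicate 3 or 4 it was 3, 4 and 4. The 491 genes that were higher in Wt mice had a median change in null mice of 0.03, or 0.09 without that mouse, when 41 of them were called higher and 19 lower. The 1207 lower genes had a median of -0.04, or -0.09 without it, with 22 called higher and 78 lower.

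The difference of the responses, Wt minus null, was called for 524 genes (5.4%), 165 higher (1.7%) and 359 lower (3.7%), and for 507 (5.23%), 159 higher (1.64%) and 348 lower (3.59%), without null vehicle replicate 1. The count was 277 without null CDDO-Im replicate 2, 284 and 335 without Wt vehicle replicates 2 and 3, and 303 and 339 without Wt CDDO-Im replicates 1 and 4. Clock state differed between the Wt groups and was mixed in both null groups, so that this difference also contrasts clock states. For Nqo1 the null vehicle mice were at 3.22, 3.32, 2.88 and 3.18 and the null treated mice at 3.32, 3.42, 3.26 and 2.95, all under log2 4, where differences are compressed. The fitted null change was 0.09 (adjusted p = 0.947) and the difference 2.22 (adjusted p = 0.00309), both subject to that limit. For Gstm3, at higher levels, these were -0.21 (adjusted p = 0.86) and 2.75 (adjusted p = 0.000925), and for Abcc2 -0.10 (adjusted p = 0.767) and 0.97 (adjusted p = 0.000314). Ppara had a null change of -0.58 (adjusted p = 0.252) and a difference of 1.61 (adjusted p = 0.00214). On its other kept probe sets the null changes were 0.00 and -0.24, beside Wt changes of 0.58 and 0.61. Mt1 went the other way in null mice without passing the test, at -1.27 (adjusted p = 0.681), and its difference was 6.48 (adjusted p = 0.0166). The null vehicle mice already had Mt1 levels of 11.92, 14.01, 10.97 and 8.22, above the highest Wt vehicle mouse in 3 of 4, and null treated mice 10.96, 9.37, 10.11 and 9.58. These 5 differences were called in every fit without 1 of the 16 mice.

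Of 9 evening clock genes limma called no difference between the genotypes, but 6 had an unadjusted p under 0.05, and their median change in null mice was 0.63. Dbp had a null change of 1.63 (adjusted p = 0.612) and a difference of 5.20 (adjusted p = 0.0728), and without null vehicle replicate 1 its null change was 3.54 (adjusted p = 0.0314). That last fit also contrasts clock states within the null mice. For Nfil3 the difference was -2.41 (adjusted p = 0.0127). The respiratory chain had 16 differences lower and 1 higher of 72, with a null median of 0.09, and Uqcrb differed by -0.42 (adjusted p = 0.000784). The other kept probe set of Uqcrb read -0.03 in Wt and 0.12 in null mice. In the fit with the clock score 320 differences (3.3%) were called, 93 higher (0.959%) and 227 lower (2.34%), and in null mice alone 8 changes (0.0825%), 2 higher (0.0206%) and 6 lower (0.0619%).

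The 10 μmol/kg response was set beside those at 3 and 30 μmol/kg, which share the vehicle mice, and compared directly with those dose groups. Against vehicle, 46 genes (0.474%) were called at 3 μmol/kg and 2291 (23.6%) at 30 μmol/kg, 272 higher (2.81%) and 2019 lower (20.8%). From 10 to 30 μmol/kg 1888 genes (19.5%) differed, 509 higher (5.25%) and 1379 lower (14.2%), or 1013 higher and 731 lower with centred arrays. The lower count was 908 without replicate 3 at 10 μmol/kg. From 3 to 10 μmol/kg 1083 differed (11.2%), 295 higher (3.04%) and 788 lower (8.13%). The count of 1083 was 638 and 710 without replicates 3 and 1 at 3 μmol/kg and 676 without replicate 1 at 10 μmol/kg. These 2 dose comparisons gave 37 and 6 calls with the clock score.

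Nqo1 differed by dose, with changes of 1.21, 2.31 and 4.09 at 3, 10 and 30 μmol/kg and a difference of 1.78 (adjusted p = 0.000212) from 10 to 30. The first of these 3 changes had an adjusted p of 0.0743. Abcc4 had changes of 0.02, 1.28 and 2.83, and Cbr1 of 0.29, 0.98 and 1.87, with differences of 1.55 (adjusted p = 0.000501) and 0.89 (adjusted p = 0.01) from 10 to 30 μmol/kg. Abcc2 stood at 0.50, 0.87 and 0.78, and its difference from 10 to 30 was -0.10 (adjusted p = 0.597) with an SE of 0.11.

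Clock genes gave calls against vehicle at the middle dose and none of the 15 did at 30 μmol/kg in limma, with 0 at an unadjusted p under 0.05. Dbp was at -0.20, 6.83 and -0.13 at the 3 doses, with a difference of -6.96 (adjusted p = 0.000224) from 10 to 30. Arntl was at 0.02, -3.88 and -0.33, with 3.55 (adjusted p = 0.000251). Of the 9 evening genes 8 were lower at 30 than at 10 μmol/kg, beside 14.2% of all genes, and of the 6 morning genes 5 were higher, beside 5.25%. The endoplasmic reticulum chaperones were higher at 30 than at 10 in 15 of 30, and the heat shock proteins in 9 of 26, beside 5.25% of all genes. None was lower in either list, beside 14.2% of all genes. These dose groups also differed in clock score. Lpin1 was at 0.57, 2.55 and 0.80, with -1.75 (adjusted p = 0.00922), and Klb at 0.07, 1.07 and -0.60, with -1.67 (adjusted p = 7.77e-06). In the respiratory chain 49 of 72 genes were lower than vehicle at 30 μmol/kg, where 20.8% of all genes were lower. At 10 μmol/kg 22 were lower, where 12.4% of all genes were. The median change over all genes was -0.16 at 30 and -0.08 at 10 μmol/kg. With centred arrays the lower count at 10 was 4, and no such count was made at 30.

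**Figure D5:**
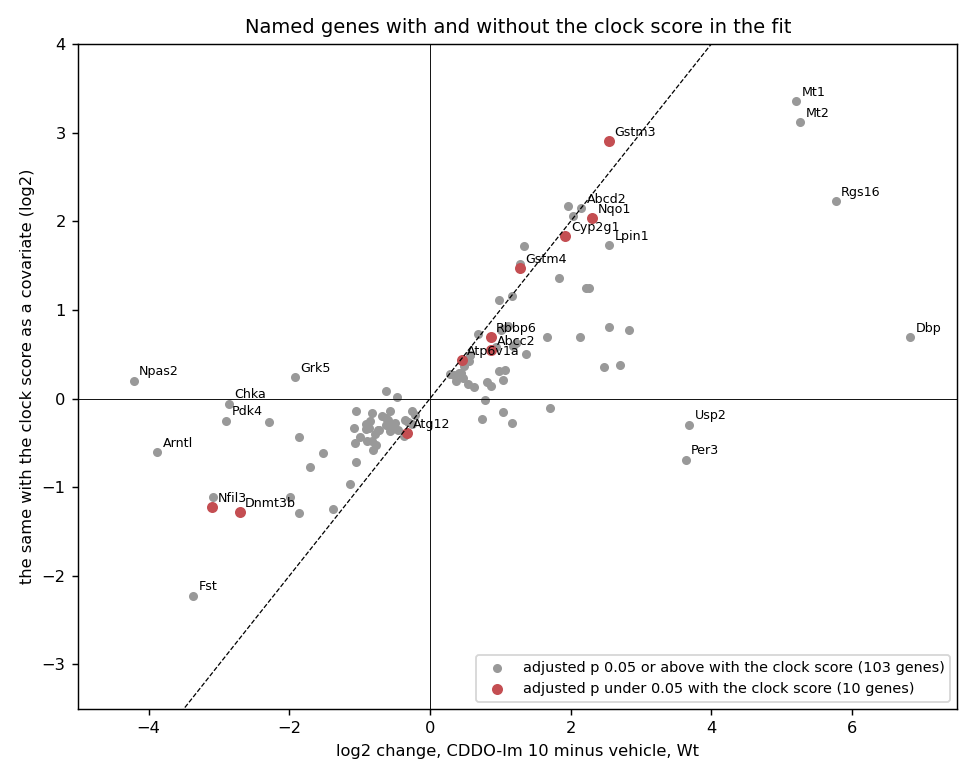
Change at 10 μmol/kg in Wt mice for named genes without (horizontal axis) and with (vertical axis) the clock score as a covariate, in log2 units. Gstm3, Nqo1 and Cyp2g1 stay near the diagonal, at 2.90, 2.03 and 1.83, and Dbp, Arntl and Npas2 lie at 0.69, -0.61 and 0.20 with it. Dbp, Arntl and Npas2 are themselves part of the score, so that their values under it are not independent of it.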

How the data were processed

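Liver RNA of single mice was hybridised to Affymetrix arrays, 4 mice in each of 10 groups (2 genotypes by 5 treatments). The deposited table holds log2 intensity per probe set, made by the authors with GCRMA across arrays (tool as named in the submitters' processing notes, version not given there). No genome build or read depth applies, and the number of arrays limits the precision. Whether mice shared a litter, cage or extraction is not given in the sources used here, so that p-values measure only the spread between mice within the 10 groups.

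Of 45037 probe sets, 34945 had 1 listed gene symbol, 932 several and 9160 none, and only those with 1 symbol were named. A probe set was kept where at least 3 arrays of a group reached log2 4, and of a gene's kept probe sets the one of highest mean level was used, which left 9695 genes. One limma fit (version 3.58.1, R 4.3.3) over all 10 groups, with trended and robust variances, gave the contrasts, and p-values were adjusted by Benjamini-Hochberg over all genes. "Called" is an adjusted p under 0.05. A gene list is described by counts and its median change. Over all genes 5.06% were called higher and 12.4% lower, and a count near these shares is no result about its list. The code was tested on simulated data with known changes. Python 3.11.15, numpy 2.4.6, pandas 2.3.3 and scipy 1.17.1 made the tables.

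The genes named are the 12 largest rises and 12 largest falls that were called in all 8 fits without 1 mouse, had no overlap and had both means at log2 4 or more, 3 more each way with a lower mean under log2 4, up to 4 members of each of 54 gene lists (those called without any 1 mouse first), the genes the study names for its canonical and lipid sets, and Nfe2l2. The members and lists were chosen with earlier results of these data known. The alternatives were no minimum or log2 6, centred arrays, a repeated quantile normalization, the mean or most variable probe set, array weights, the groups or genotype of the contrast alone, the replicate number as a block, variances without trend, each mouse left out, and the study's rank tests (1.5-fold, Kruskal-Wallis by permutation, exact Wilcoxon). The clock score as a covariate was added after the data were seen.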

Additional observations from a re-analysis of the deposited data

Results flagged for a closer look

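In 15 of 232 groups of 4 mice, 1 mouse of a named gene stood apart from the other 3 by the Dixon criterion, which chance alone would do for about 1 in 20 groups. In treated Wt mice these were the lowest mouse of Abcc2 (13.10), Cat (15.42) and Srsf3 (10.52) and the highest of Ndufs7 (12.78). In vehicle-treated Wt mice the highest mouse stood apart for Chka (10.32), Hspb1 (10.66), Elovl1 (10.69), Slc38a2 (11.80), Cat (15.47), Uqcrb (15.54), Marco (3.25) and Stat5a (8.44), and the lowest for Pvt1 (2.96), Slc11a2 (6.19) and Lss (9.04). All values are log2 levels.

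The response to 10 μmol/kg differed between Wt and Nrf2-null mice, by the interaction term in limma, for 40 of the named genes, and each value here is the Wt change minus the null change on the log2 scale. Of these, 18 were called in all 16 fits without 1 mouse. They were, among enzymes and exporters, Nqo1 (2.22), Gstm3 (2.75), Gstm1 (1.38), Cyp2g1 (1.88) and Abcc2 (0.97), and among regulators Ppara (1.61), Tob2 (2.09), Cdkn1b (0.60), Nfil3 (-2.41) and Dnmt3b (-2.38). The others were Mt1 (6.48), Atp6v1a (0.91), Psma7 (0.74), Slc38a4 (0.57), Pvt1 (-1.42), Uqcrb (-0.42), Ndufa9 (-0.38) and Rpl38 (-0.35). The null means of Nqo1, Cyp2g1 and Pvt1 were under log2 4, where differences are compressed.

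The other 22 lost the call without at least 1 mouse, with adjusted p between 0.0502 and 0.114, and each of the 16 mice ended at least 1 of them. Those with a positive difference were Mt2 (7.20), Lpin1 (2.47), Abcc4 (1.57), Slc7a2 (1.30), Klf13 (1.22), Lpin2 (0.88), Nr1i2 (0.84), Ephx1 (0.69) and Ddx5 (0.55). Those with a negative difference were Arntl (-3.10), Lonrf3 (-2.37), Id4 (-1.72), Unc13b (-1.68), Stat5a (-1.06), Rpl14 (-0.97), Plin5 (-0.94), Plin2 (-0.82), Srsf3 (-0.80), Cyp2c70 (-0.69), Ndufs7 (-0.53), Ndufv3 (-0.35) and Atg12 (-0.30).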

How the results depend on the processing

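For the 116 named genes under 20 settings, 2086 of 2314 values kept the direction and side of the threshold, 206 lost the call, 4 gained it and 18 reversed, and 87 of the 113 called genes were called without any 1 mouse. The count of 1698 genes called in Wt mice was 2679 with array weights, 770 by the study's rank tests and 58 with the clock score, and ranged from 1117 to 1718 without 1 mouse. The higher genes were 900 with array weights, 259 by the rank tests and 18 with the clock score (292 to 453 without 1 mouse), and the lower ones 511 by the rank tests and 40 with the clock score (720 to 1327 without 1 mouse). The 7 calls in Nrf2-null mice became 12 at a minimum of log2 6, 15 with centred arrays and 15 after quantile normalization, 14 with mean probe sets, 66 with the most variable probe set, 613 with array weights and 3 in the null genotype alone. With their 2 groups alone limma called 0, with 635 at an unadjusted p under 0.05, and without 1 mouse the count ranged from 3 to 628. The 524 genotype differences were 290 with no minimum, 266 in the groups alone and 320 with the clock score, and 277 to 738 without 1 mouse. The 1888 differences from 10 to 30 μmol/kg were 37 with the clock score and 1334 to 1956 without 1 mouse. The 1083 from 3 to 10 μmol/kg were 2187 with array weights, 1653 in Wt mice alone, 6 with the clock score and 638 to 1237 without 1 mouse. Beyond the choice of covariate, fewer samples or probe sets that each alternative itself makes, the cause was not tested.

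The most variable probe set reversed Atg12 (0.10), Ddx5 (-0.20), Neat1 (0.81), Psmb4 (-0.0820), Rbbp6 (-1.21) and Rgs5 (0.28), and the mean of probe sets Rbbp6 (-0.37). The clock score reversed Usp2 (-0.30), Per3 (-0.69), Wee1 (-0.11), Ppargc1b (-0.27), Slc1a2 (-0.15), Ulk1 (-0.0138), Npc1 (-0.23), Stat5b (0.0214), Slc16a1 (0.0803), Grk5 (0.24) and Npas2 (0.20). Clock genes such as Npas2 make up the score, so that their reversal is not independent of it. The second Nfe2l2 probe set gave a vehicle difference of -0.43. Promoters of tested genes alone held the ARE core in 14.5%, the E-box in 10.2% and the D-box in 1.62%.

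Replicate numbers did not pair the mice: deviations of same-numbered Wt mice correlated at 0.10, -0.07, 0.04 and -0.05. With the replicate number as a block 1683 genes were called, and the call of no named gene changed. Of the list counts, immediate early genes called higher went from 1 to 2 and choline and phospholipid genes called lower from 2 to 1. Signal over background limits Cyp2g1, Id4, Maff, Marco, Npas2, Per3, Pls1 and Pvt1, whose lower Wt mean was under log2 4, and Nqo1 in null mice.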

Other observations

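The vehicle-treated mice of both genotypes were set side by side for a few genes, outside the comparisons above and without a test. Nqo1 had log2 levels of 3.22, 3.32, 2.88 and 3.18 in Nrf2-null vehicle mice, all under the lowest Wt vehicle mouse at 4.43. Gstm3 read 8.65, 8.88, 8.18 and 8.80 and Gstm1 11.43, 11.33, 11.35 and 10.79 in the same null mice, and every Wt vehicle mouse was higher for both. Lpin1, by contrast, read 12.26, 10.76, 11.79 and 10.06 in null vehicle mice, which overlapped the Wt vehicle mice at 9.24 to 10.83.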
